A study of Mus musculus with 18 samples.

Results

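Polysome-bound RNA of cultured myeloid-derived suppressor cells (MDSC) sorted on high Ly6G, the LY6G group, was compared with polysome-bound RNA of whole bone marrow, the BM group. The comparison takes 6 of the 18 libraries of the series, namely LY6G replicates numbered 2, 3 and 6 and BM replicates numbered 1, 2 and 3, and the numbers do not pair them. Both groups came from wild type C57BL/6 mice, and their ages are not given in the labels. The LY6G cells were differentiated from bone marrow in culture over 5 days, sorted as high for CD11b and Ly6G and intermediate for Ly6C, plated again, and harvested on the following day with cycloheximide, a drug that holds ribosomes on their mRNA. The BM cells came from the femurs of 3 mice, and their red cells were removed with ACK buffer. Marrow was neither cultured nor sorted, so the comparison joins the cell population with culture and sorting, and these cannot be told apart. The other libraries hold total RNA of the same cells and both kinds of RNA from LY6C cells, a second MDSC population sorted as negative for Ly6G and high for Ly6C.

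MDSC are immature myeloid cells, and the kind that carries Ly6G on its surface is named granulocytic or polymorphonuclear because it resembles young neutrophils. They restrain T cells by degrading arginine, by releasing nitric oxide and reactive oxygen, and by ligands such as PD-L1. Bone marrow is a mixture in which neutrophils and their precursors are abundant beside red cell precursors, developing B cells, megakaryocytes, eosinophils and supporting stroma. An mRNA carried by several ribosomes sediments into the polysomal fractions of a sucrose gradient, so polysomal RNA reports the mRNAs that a cell is translating.

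Total counts were 18268197 to 20552964 in LY6G and 12107504 to 17846803 in BM libraries. The groups differed far more in the counts on nuclear protein-coding genes. These made up 91.3% to 94.6% of a LY6G library, or 16916332 to 18772939 counts, and 1.82% to 3.71% of a BM library, or 274914 to 598151 counts. The gene Lars2 was left out of this set of 21984 genes, here and wherever nuclear protein-coding counts are used below. Mitochondrial ribosomal RNA held 0.313% to 1.52% of LY6G and 31.0% to 43.7% of BM counts. Levels are given as CPM, counts relative to a library size that TMM factors put on a common scale, in the order of the replicate numbers. Under this scaling 1 CPM stood for 90 to 104 counts in LY6G and 1.73 to 3.51 counts in BM, so low BM values are coarse, and a gene with 0 BM counts was not detectable at this depth. At least 10 counts were reached by 13374 to 13685 genes in LY6G and 5226 to 7371 in BM. LY6G replicate 6 stood apart: of 4627 genes with 10 CPM or more, 213 were over 2-fold above and 200 over 2-fold below both other LY6G libraries, against at most 7 for replicate 2 or 3. BM libraries differed among themselves too, with 223 genes above and 92 below for replicate 1. For some of the results that rest on LY6G replicate 6, but not for all, the value without that library is given.

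The genes behind the sort were read before all others. Itgam, which encodes CD11b (ENSMUSG00000030786, GRCm38 chromosome 7, 128062640 to 128118491), had 41.1, 41.6 and 38.1 CPM in LY6G and 9.7, 5.78 and 7.38 CPM in BM. All LY6G libraries lay above all BM libraries, 5.19-fold in the fit (log2 difference 2.38 ± 0.56 SE, adjusted p = 0.00248, edgeR's quasi-likelihood test, n = 3 each). Ly6g (ENSMUSG00000022582, chromosome 15, 75155240 to 75159126), the gene of the sorted antigen, had 1.91, 1.43 and 11.7 CPM in LY6G and 9.7, 4.63 and 5.97 CPM in BM. The groups overlapped, since LY6G replicate 6 was the highest library and replicates 2 and 3 were below every BM library (log2 difference -0.47 ± 0.78, adjusted p = 0.652). Without LY6G replicate 6 the difference was -2.03 with an adjusted p = 0.0357. In these libraries the transcript of the gate gene was therefore not called higher than in marrow. Ly6c2, a gene of the Ly6C antigen (ENSMUSG00000022584, chromosome 15, 75108158 to 75111970), had 71.4, 84.3 and 123 CPM against 14.8, 19.1 and 8.43 CPM and rose 6.64-fold (adjusted p = 0.000481). Its near copy Ly6c1 had 0, 0.0193 and 0.0667 CPM in LY6G against 0.571, 3.47 and 0.351 CPM in BM and was called lower (log2 difference -5.37 ± 1.96, adjusted p = 0.0395). That call was lost without LY6G replicate 2, LY6G replicate 3, BM replicate 1 or BM replicate 2 (adjusted p between 0.0527 and 0.257), it rests on 8 and 9 counts, and reads of the pair may be split unevenly between them. Ptprc, the leukocyte antigen CD45, had 161, 145 and 130 CPM in LY6G against 45.9, 16.8 and 21.4 CPM in BM (5.12-fold, adjusted p = 2.85e-05).

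Markers of other cell types differed with the group, and their part in the results on single genes was not tested. In bulk RNA, fewer cells of a type and less RNA per cell cannot be told apart. The summed level of 12 neutrophil markers was 1410 to 1490 CPM in LY6G and 1720 to 2540 CPM in BM, the lower range being that of the sorted cells. Single markers of that list went both ways, with Mmp8 and Lcn2 called higher in LY6G and S100a9, Retnlg and Camp lower. S100a9 alone had 281, 312 and 212 CPM in LY6G against 1120, 705 and 607 CPM in BM. The sum of 10 monocyte and macrophage markers was 606 to 1040 CPM in LY6G and 123 to 136 CPM in BM, and that of 6 dendritic markers 226 to 504 against 53.6 to 82.7 CPM. The dendritic sum was carried by Cd74, Itgax and H2-Ab1, and the other markers of that list, Flt3, Siglech and Zbtb46, had lower mean levels in LY6G than in BM. The 5 granulocyte progenitor markers summed to 16.3 to 37.4 CPM in LY6G and 232 to 280 CPM in BM. The 8 erythroid markers summed to 0.0482 to 1.38 CPM in LY6G and 493 to 885 CPM in BM, with Slc4a1 at 0 counts in every LY6G library. The 7 B lineage markers summed to 0.183 to 2.05 CPM against 82.2 to 98.7 CPM, with Igll1 at 0 counts in LY6G, and 5 T and NK markers to 0.589 to 0.714 against 12.3 to 14.5 CPM. Eosinophil markers, 4 in number, had 4.14 to 18.3 CPM in LY6G, highest in replicate 6, and 223 to 312 CPM in BM. The 5 stroma and bone markers had 92.0 to 113 against 1990 to 6200 CPM, and of the LY6G sum 90.9 to 111 CPM was Spp1, which phagocytes also make. Progenitor markers, again 4, had 5.87 to 9.03 against 61.0 to 73.4 CPM. Sums overlapped between the groups for megakaryocyte, basophil and mast cell, and endothelial markers.

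**Figure D1:**
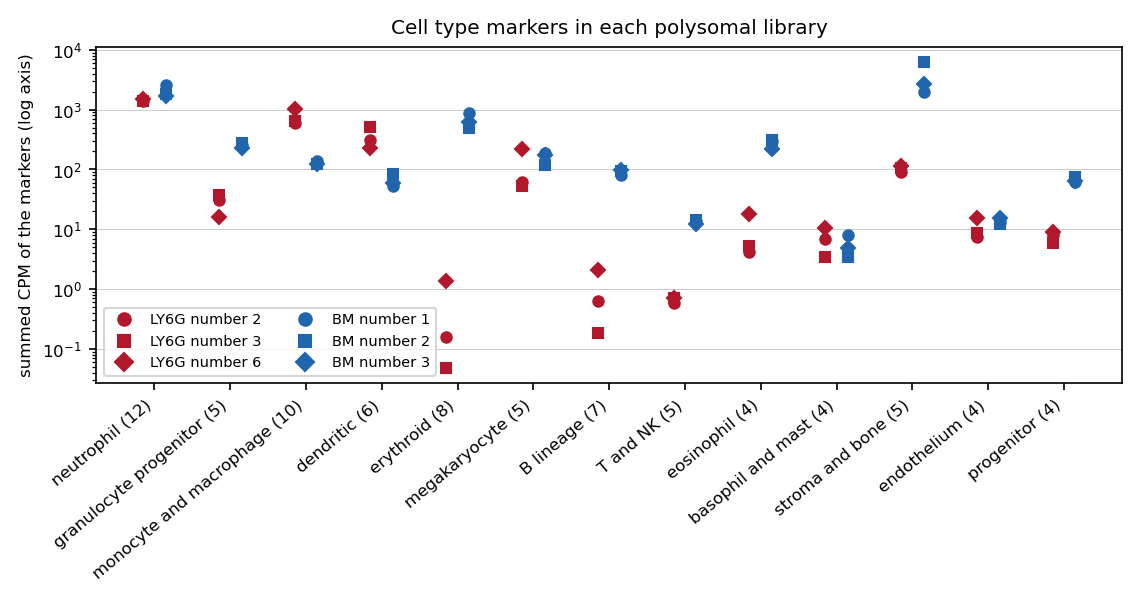
Summed CPM of fixed marker genes (log axis) for each of 13 cell types, with the number of markers in brackets, in the 3 LY6G (red) and 3 BM (blue) polysomal libraries, each point being a library. Erythroid markers sum to 0.0482 to 1.38 CPM in LY6G and 493 to 885 CPM in BM, while neutrophil markers lie at 1410 to 1490 and 1720 to 2540 CPM.

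Across the transcriptome, LY6G polysomes carried more mRNA of macrophage-type receptors, chemokines, lysosomal enzymes and immediate early factors, and less of erythroid, B lineage, stromal and eosinophil genes. Of 14181 genes tested, 3137 (22.1%) were higher and 2176 (15.3%) lower in LY6G at an adjusted p under 0.05 in edgeR. These 2 shares are the background against which counts of gene groups are given below. The groups did not overlap for 60.7% of all genes tested. Over all genes the median log2 difference came to 0.45, and scaling on nuclear protein-coding genes alone put it at 0.11, so small differences depend on the scaling. Higher genes were 59.0% of all calls, and 46.9% after every library was thinned to at most 274914 nuclear protein-coding counts, where 7245 genes were tested. BM held 0 counts of 455 of the higher genes, and LY6G held 0 counts of 24 of the lower genes.

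**Figure D2:**
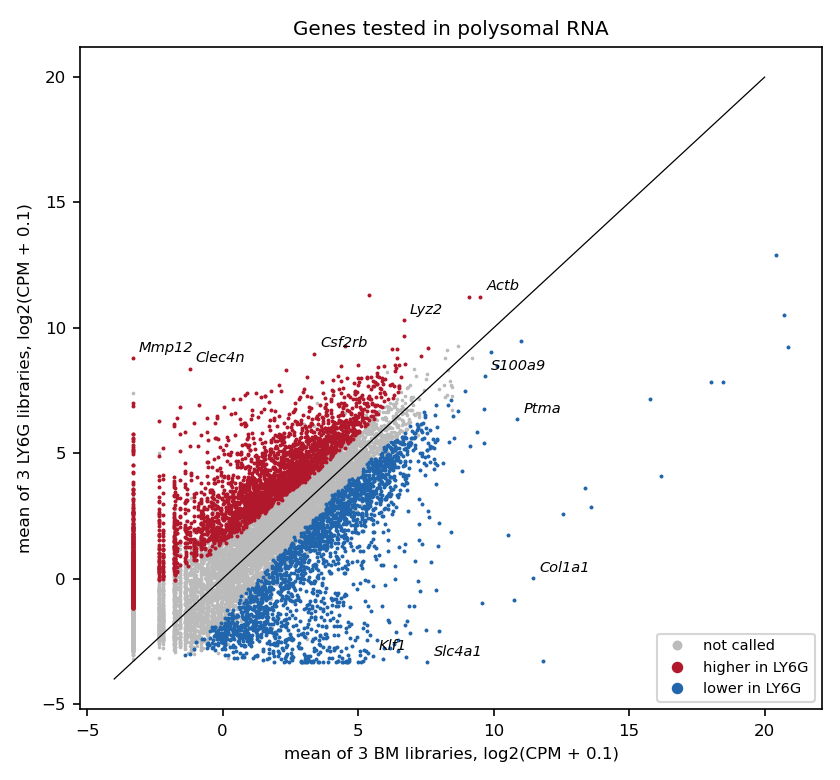
Mean level of each of 14181 genes in the 3 BM libraries (x axis) and the 3 LY6G libraries (y axis), as log2(CPM + 0.1), with the diagonal of equal levels. Red points are the 3137 genes called higher and blue points the 2176 called lower in LY6G, and the column of red points at the left edge holds genes with 0 counts in BM.

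The largest rise among genes without a BM count was that of Mmp12, the macrophage elastase (ENSMUSG00000049723, chromosome 9, 7344381 to 7369499). It had 436, 495 and 403 CPM in LY6G and 0 counts in every BM library. It was at least 1200-fold higher, taking 3 counts over the BM group as the floor (adjusted p = 2.73e-06). Among genes with BM counts, Clec4n, the fungal receptor dectin-2 (ENSMUSG00000023349, chromosome 6, 123229843 to 123247021), had 322, 312 and 365 CPM in LY6G and 3 counts in all of BM. The ratio of its pooled counts per library size was 893, with an exact 95% counting interval of 306 to 4330. Ier3, an early response gene of survival signalling, had 137, 126 and 86.4 CPM against 2 BM counts, a ratio of 473 (interval 131 to 3910). Cish, a feedback inhibitor of cytokine receptors that signal through STAT5, had 88.5, 74.9 and 54.2 CPM against 2 BM counts, a ratio of 295 (81.6 to 2440). Gpnmb, a glycoprotein of phagocytes, had 113, 78.8 and 171 CPM against 0.285, 0 and 1.05 CPM (log2 difference 7.93 ± 0.83, adjusted p = 1.84e-06). Acod1, which makes itaconate, had 57.2, 64.0 and 132 CPM against 4 BM counts (7.38 ± 1.41, adjusted p = 0.00116). Ccn3, a matricellular protein, and Tnip3, an inhibitor of NF-kB signalling, had 1 BM count each and ratios of 302 (54.2 to 11900) and 243 (43.7 to 9620). Saa3, an acute phase protein, and Ly6i, a Ly6 family antigen, had 0 BM counts and were at least 327-fold and 144-fold higher. LY6G replicate 6 was far above the others for Saa3, at 323 CPM against 29.9 and 32.2 CPM.

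**Figure D3:**
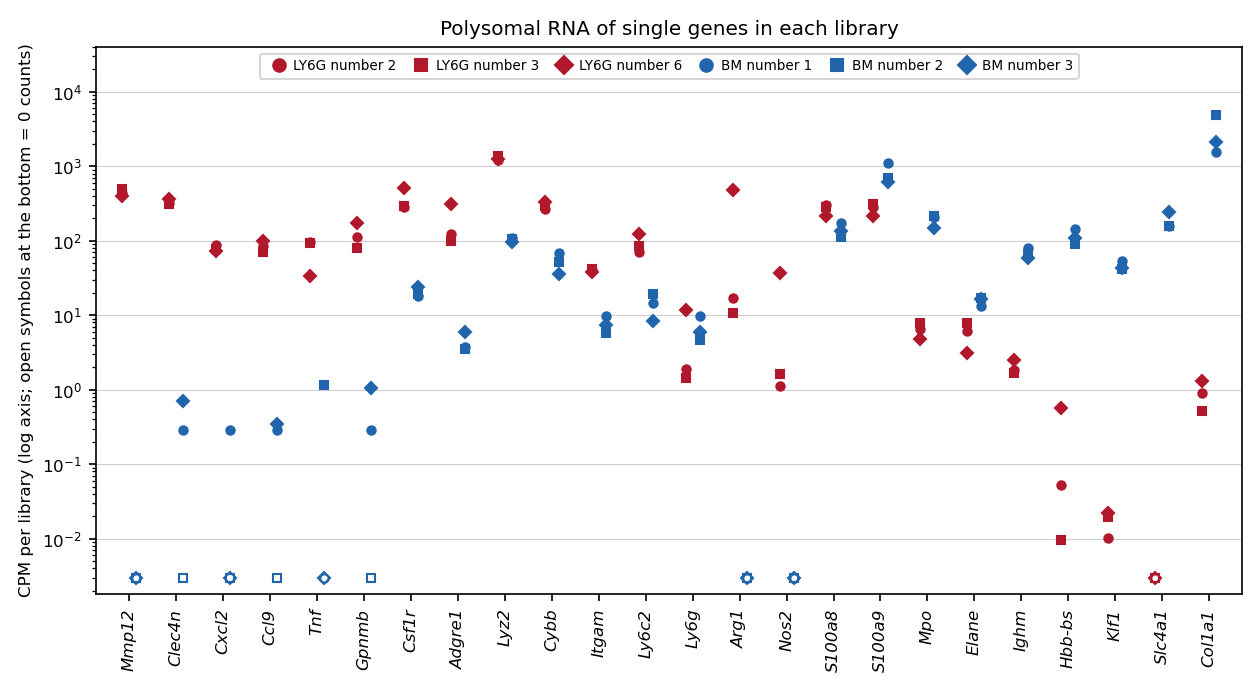
Level of 24 genes in each polysomal library (CPM, log axis), with LY6G in red and BM in blue and the replicate given by the symbol. Open symbols at the bottom stand for 0 counts. Ly6g overlaps between the groups, with LY6G replicate 6 at 11.7 CPM, and Arg1 and Nos2 are highest in that library at 477 and 37.1 CPM.

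Chemokine and cytokine genes made up the group with the highest median. Of 28 inflammatory genes tested, 21 were higher and 0 lower, and their median log2 difference was 7.96, or 6.08 with genes at 0 BM counts held at their floor. BM had 0 counts of 12 of the 28. Cxcl2, a neutrophil attractant (ENSMUSG00000058427, chromosome 5, 90903871 to 90905938), had 88.6, 76.6 and 71.8 CPM in LY6G and 1 count in BM, a ratio of 640 with an interval of 115 to 25300. Its neighbour Cxcl3, of the same class, had 45.3, 32.0 and 279 CPM against 0 counts and was at least 304-fold higher (adjusted p = 0.0145). The CC chemokines Ccl2, which calls monocytes through CCR2, and Ccl4, which attracts several kinds of leukocyte, were at least 147-fold and 131-fold higher than 0 BM counts, with 51.1, 55.2 and 57.6 CPM and 61.1, 59.7 and 25.4 CPM. The ligands Ccl9 and Ccl6 of the receptor CCR1 had 84.6, 70.5 and 97.8 CPM and 198, 151 and 153 CPM. For Ccl9 the ratio was 338 (interval 93.5 to 2790), and Ccl6 rose 85.1-fold (adjusted p = 2.7e-07). Every LY6G library lay above every BM library for each of these genes, but this was a condition for naming them and adds no support.

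Among cytokines, Tnf had 96.8, 92.6 and 33.4 CPM against 2 BM counts, a ratio of 306 (interval 84.6 to 2520). Il1b, chosen here after its values were seen, encodes interleukin-1 beta and had 203, 137 and 172 CPM against 1.43, 4.63 and 0.703 CPM (85.4-fold, adjusted p = 4.7e-06). Il1rn, the antagonist that blocks the interleukin-1 receptor, had 97.2, 76.6 and 92.0 CPM against 1.14, 1.16 and 0 CPM (119-fold, adjusted p = 1.39e-06). The agonist and its antagonist were thus both higher in LY6G polysomes. The 7 inflammatory genes that did not pass included Il6 and Cxcl10, named after their values were seen. Il6 had 1.57, 1.48 and 7.07 CPM against 0 BM counts (adjusted p = 0.0942), and Cxcl10 had 4.91, 5.93 and 17.0 CPM against 3 BM counts (adjusted p = 0.0502). LY6G replicate 6 was the highest library for both.

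Promoters of this group are shown because some members hold the letters of a motif recognised by NF-kB, a factor that switches on many chemokine genes. Upstream sequences of 250 bases from RefSeq (GRCm38.p6) were found for 20 listed inflammatory genes, and the letters GGGNNTTTC occurred on either strand in 8 of them (40%), against 4.35% of 27025 genes with a promoter. The letters TGANTCA of the AP-1 motif occurred in 6 of 20 (30.0%), against 7.82%. Capitals in the lines that follow mark GGGNNTTTC or its reverse complement, and a match describes letters, not binding.
Cxcl2, chr5:90903649-90903898, plus strand: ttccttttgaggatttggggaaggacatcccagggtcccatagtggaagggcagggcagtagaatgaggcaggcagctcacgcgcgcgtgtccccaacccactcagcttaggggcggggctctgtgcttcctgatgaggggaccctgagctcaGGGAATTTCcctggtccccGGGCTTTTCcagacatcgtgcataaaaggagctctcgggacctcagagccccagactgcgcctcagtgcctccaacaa
Cxcl3, chr5:90785851-90786100, plus strand: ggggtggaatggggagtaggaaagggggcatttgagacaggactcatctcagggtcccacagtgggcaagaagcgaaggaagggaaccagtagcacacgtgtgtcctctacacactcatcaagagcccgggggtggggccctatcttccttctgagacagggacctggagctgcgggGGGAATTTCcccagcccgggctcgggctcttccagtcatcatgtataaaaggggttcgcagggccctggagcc
Ccl9, chr11:83578637-83578886, minus strand: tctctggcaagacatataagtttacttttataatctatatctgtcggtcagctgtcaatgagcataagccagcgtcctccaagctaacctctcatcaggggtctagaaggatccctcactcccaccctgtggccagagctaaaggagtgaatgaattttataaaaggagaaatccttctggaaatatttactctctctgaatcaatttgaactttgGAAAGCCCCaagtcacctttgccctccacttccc
Cxcl2 has 2 matches, which begin 97 and 78 bases before the RefSeq start, and Cxcl3 has 1 at 73 bases. In Ccl9 the match is read on the opposite strand and begins 34 bases before the start. The genes shown were taken from those with the letters, which also included Il6, a gene that was not called. No factor's binding was measured in these cells.

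Receptors that sense microbes and immune complexes rose almost as a whole. Of 23 lectin, Fc and pattern receptor genes tested, 20 were higher and 0 lower, with a median log2 difference of 3.97, or 3.73 with genes at 0 BM counts held at their floor. Tlr2, the receptor of bacterial lipopeptides, had 102, 106 and 133 CPM in LY6G and 0.285, 1.16 and 1.41 CPM in BM (128-fold, adjusted p = 3.02e-08). Tlr4, the endotoxin receptor, had 36.7, 37.4 and 39.5 CPM against 0.285, 1.16 and 1.05 CPM (49.7-fold, adjusted p = 1.14e-06). Fcgr1, the high affinity IgG receptor, had 25.2, 31.9 and 60.2 CPM against 3 BM counts in all, a ratio of 104 (interval 35.4 to 502). The 3 members that did not pass, named after their values were seen, were Clec10a, Fcgr4 and Tlr1, with adjusted p = 0.455, 0.716 and 0.0504. Tlr1 had 2.03, 1.22 and 2.46 CPM against 3 BM counts.

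Of 26 monocyte and macrophage genes, 18 were higher and 2 lower, and the median log2 difference was 2.74. Csf1r, the receptor of macrophage colony-stimulating factor (ENSMUSG00000024621, chromosome 18, 61100598 to 61132149), had 280, 289 and 514 CPM in LY6G and 18.3, 19.1 and 24.2 CPM in BM (17.6-fold, adjusted p = 6.7e-07). Adgre1, which encodes the macrophage antigen F4/80, had 124, 98.5 and 310 CPM against 3.71, 3.47 and 5.97 CPM (40.1-fold, adjusted p = 1.81e-06). Both were highest in LY6G replicate 6, yet replicates 2 and 3 also lay far above BM. The 2 lower members, named after their values were seen, were C1qa, a chain of complement C1q (2.40, 2.97 and 9.57 against 26, 23.1 and 19.3 CPM, adjusted p = 0.0287), and Irf8, a factor of monocyte fate (7.82, 10.6 and 22.2 against 31.4, 46.3 and 30.2 CPM, adjusted p = 0.0338). Neither call is firm: C1qa passed only without LY6G replicate 6 or BM replicate 3 and Irf8 only without LY6G replicate 6 when 1 library at a time was left out. C1qb, C1qc, Cx3cr1 and Apoe, which did not pass, had log2 differences of -0.83, -1.45, -1.44 and -2.99.

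Antigen presentation genes split in the same way. Of 14 MHC class II and dendritic cell genes 7 were higher and 1 was lower, with a median log2 difference of 2.30. Cd74, the invariant chain, had 185, 335 and 154 CPM against 19.4, 47.4 and 19.7 CPM (7.89-fold, adjusted p = 0.000286). Itgax, the integrin CD11c, had 84.2, 113 and 41.4 CPM against 3.71, 2.31 and 4.92 CPM (21.2-fold, adjusted p = 4.6e-05). Cd86, which costimulates T cells, had 13.7, 16.7 and 11.9 CPM against 6 BM counts (18.9-fold, adjusted p = 0.000266), and H2-DMa, which loads peptides, rose 3.46-fold (adjusted p = 0.0141). Without LY6G replicate 3 or BM replicate 3, H2-DMa did not pass (adjusted p = 0.0581 and 0.077). The class II chains H2-Ab1 and H2-Aa had log2 differences of 1.07 and 1.18 (adjusted p = 0.0796 and 0.0917). The lower member was Zbtb46, a factor of classical dendritic cells, at 1.33, 1.70 and 0.433 against 8.84, 10.4 and 8.78 CPM (adjusted p = 0.000528), named after its values were seen.

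Lysosomal and lipid handling genes were among the groups with most members higher. Of 28 lysosome genes 22 were higher and 0 lower, with a median log2 difference of 2.52. Ctsd, the protease cathepsin D, had 207, 194 and 409 CPM in LY6G against 20, 20.8 and 16.9 CPM in BM (14.1-fold, adjusted p = 1.65e-05). Ctsz, another cathepsin, had 148, 162 and 241 CPM against 15.4, 11.6 and 21.8 CPM (11.2-fold, adjusted p = 7e-06). Grn, the precursor of granulins, had 197, 230 and 361 CPM against 36.5, 42.8 and 39.7 CPM (6.62-fold, adjusted p = 1.19e-05). Lipa, the acid lipase that frees cholesterol from esters, had 81.8, 68.5 and 72.8 CPM against 2.0, 2.31 and 0.703 CPM (45.8-fold, adjusted p = 1.84e-06). Of 18 genes of lipid uptake and storage 11 were higher and 1, the fatty acid carrier Fabp4, was lower (2 without LY6G replicate 6), with a median of 3.25, or 2.86 with genes at their floor. Lpl, lipoprotein lipase, had 343, 432 and 177 CPM against 5.99, 5.2 and 3.51 CPM (64.6-fold, adjusted p = 2.73e-06). Olr1, the receptor of oxidised low density lipoprotein, had 17.4, 17.1 and 17.4 CPM against 1 BM count, a ratio of 140 (interval 25.1 to 5530).

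Of 13 matrix metalloproteinase and related genes, 7 were higher and 2 lower. Beside Mmp12, the collagenase Mmp8 of neutrophil granules had 206, 165 and 168 CPM against 16.3, 22.0 and 12.3 CPM (10.8-fold, adjusted p = 2.78e-05). Adam17, the sheddase that releases TNF, had 74.8, 73.3 and 76.0 CPM against 2.0, 6.94 and 5.27 CPM (16.5-fold, adjusted p = 1.11e-06). Mmp19 had a ratio of 107 (interval 36.5 to 518). The 2 lower members, Timp3, an inhibitor of these proteases, and Mmp25, a membrane type protease, were named after their values were seen and had log2 differences of -3.74 and -1.98.

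Genes of suppressive function were higher for 12 of 22 members and lower for 0, with a median log2 difference of 2.47. The higher count was 10 without LY6G replicate 6 or BM replicate 2. Cybb and Cyba, the membrane subunits of the NADPH oxidase that makes superoxide, had 265, 294 and 327 against 68.2, 52.0 and 36.2 CPM and 165, 145 and 182 against 30.8, 34.7 and 22.5 CPM. These were rises of 5.66-fold and 5.6-fold (adjusted p = 9.17e-06 and 1.84e-05), while the cytosolic subunits Ncf1 and Ncf4 had log2 differences of 0.20 and -0.08. Cebpb, a transcription factor of MDSC formation, had 242, 188 and 343 CPM against 23.7, 22.0 and 26.7 CPM (10.7-fold, adjusted p = 6.18e-06). Nt5e, the ectoenzyme CD73 that makes adenosine, had 14.9, 12.2 and 25.2 CPM against 3 BM counts, a ratio of 46.1 (interval 15.8 to 224). Cd274, which encodes PD-L1 and was named after its values were seen, had 58.1, 43.8 and 121 CPM against 7 BM counts that fell to replicates 1 and 3 (88.2-fold, adjusted p = 0.000134).

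Arg1, arginase 1 (ENSMUSG00000019987, chromosome 10, 24915221 to 24927484), had 16.9, 10.7 and 477 CPM in LY6G and 0 counts in BM. Nos2, the inducible nitric oxide synthase (ENSMUSG00000020826, chromosome 11, 78920787 to 78960254), had 1.12, 1.61 and 37.1 CPM against 0 counts. Every LY6G library was above BM for both genes, but replicate 6 was over 20 times the others for each, and neither passed (adjusted p = 0.108 and 0.331). Arg1 passed in the fit of the 6 libraries alone (adjusted p = 0.0128), without a low-count filter (4.47e-42) and with a replicate block (0.00136). Nos2 passed without a filter (2.43e-17). The SD in LY6G exceeded the mean for both, at 267 against 168 CPM for Arg1 and 20.6 against 13.3 CPM for Nos2. The small adjusted p values without a filter therefore do not show that the LY6G replicates were alike. No BM library is numbered 6, so the block had no BM library to set against LY6G replicate 6. The calls of both genes thus depended on the fit.

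Immediate early and stress genes, which cells switch on within minutes of a stimulus, were higher for 18 of 21 members, with a median log2 difference of 2.82. Egr1, a zinc finger factor of this class, had 205, 150 and 78.7 CPM in LY6G and 2.0, 0.578 and 1.05 CPM in BM (110-fold, adjusted p = 1.48e-05). Tnfaip3, the ubiquitin editor A20 that limits NF-kB, had 61.1, 59.5 and 46.6 CPM against 2.0, 1.73 and 4.22 CPM (20.6-fold, adjusted p = 5.73e-07). Atf3 had a ratio of 274 (interval 76.0 to 2270). The 1 lower member was Dusp2, a phosphatase of MAP kinases, at 8.75, 3.63 and 2.42 against 42.2, 59.0 and 40.4 CPM (adjusted p = 0.00077). LY6G replicate 6 was the lowest LY6G library for Ier3, Egr1, Tnfaip3 and Atf3.

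Of 27 myeloid transcription factors, 18 were higher and 4 lower, with a median of 2.03. Bhlhe40, a factor of activated myeloid cells, had 65.0, 65.8 and 52.3 CPM against 4.56, 2.31 and 2.81 CPM (18.2-fold, adjusted p = 1.4e-06). Runx1, a core factor of blood formation, had 63.5, 61.2 and 59.9 CPM against 6.56, 5.78 and 4.92 CPM (10.7-fold, adjusted p = 2.59e-06). The 4 lower members were Cebpa, Cebpe, Gfi1 and Irf8, named after their values were seen. Cebpe and Gfi1 drive granulocyte maturation, and they had 5.48, 7.19 and 5.91 against 21.4, 22.5 and 18.3 CPM and 1.23, 1.89 and 1.10 against 14.8, 13.9 and 15.8 CPM (adjusted p = 0.0453 and 0.0201). These 4 calls rest on single libraries. Without LY6G replicate 2 none of them passed, without LY6G replicate 3, LY6G replicate 6, BM replicate 2 or BM replicate 3 only 1 did, and without BM replicate 1 only 2 did. Cebpe lost its call with any library left out (adjusted p between 0.0744 and 0.12).

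Neutrophil genes moved in both directions. Of 25 genes of mature neutrophils and their secretory granules, 8 were higher and 6 lower, with a median log2 difference of 0.84. These shares were 32.0% and 24.0%, against 22.1% and 15.3% of all genes tested. The lower count was 3 without LY6G replicate 2, LY6G replicate 6 or BM replicate 1, and 4 without LY6G replicate 3 or BM replicate 2. Lyz2, lysozyme, had 1220, 1360 and 1240 CPM in LY6G and 108, 106 and 95.2 CPM in BM (12.4-fold, adjusted p = 1.84e-06). Il1r2, the decoy receptor of interleukin-1, had 60.3, 59.8 and 45.9 CPM against 3.42, 1.16 and 1.41 CPM (25.9-fold, adjusted p = 8.09e-07). Retnlg, a secreted resistin-like protein of neutrophils, went the other way at 1.33, 1.08 and 4.76 against 67.9, 31.8 and 45.3 CPM (log2 difference -4.35 ± 0.65, adjusted p = 4.18e-05). S100a8 and S100a9 encode the 2 chains of calprotectin. S100a9 had 281, 312 and 212 CPM against 1120, 705 and 607 CPM (log2 difference -1.60 ± 0.58, adjusted p = 0.0353), and S100a8 had 306, 288 and 213 CPM against 173, 113 and 135 CPM (0.94 ± 0.52, adjusted p = 0.16). The S100a9 call was lost when any library but BM replicate 3 was left out (adjusted p between 0.0534 and 0.124) and with a replicate block (0.0575). S100a8 was called higher in the fit of the 6 libraries alone (adjusted p = 0.0134), without a low-count filter (0.0263) and with a replicate block (0.0175). Csf3r, the receptor of granulocyte colony-stimulating factor, overlapped between the groups (adjusted p = 0.215), and was called higher in the fit of the 6 libraries alone (0.0248) and without a low-count filter (0.00155).

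Primary granules are made at the promyelocyte stage, and of 8 of their genes 1 was higher and 1 lower. Mpo, myeloperoxidase, had 6.45, 7.93 and 4.79 CPM in LY6G and 211, 214 and 148 CPM in BM, a log2 difference of -4.90 ± 1.33 (adjusted p = 0.00982). Ctsc, the protease that activates the granule enzymes, had 260, 319 and 211 CPM against 7.70, 8.67 and 9.14 CPM (31.0-fold, adjusted p = 1.79e-07). Elane, neutrophil elastase, had 6.07, 7.97 and 3.13 CPM against 13.1, 16.8 and 16.5 CPM without passing (adjusted p = 0.385), although the groups did not overlap, and was called lower in the fit of the 6 libraries alone (0.0108) and without a low-count filter (0.0183). Mpo and Ctsc were thus called in opposite directions.

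**Figure D4:**
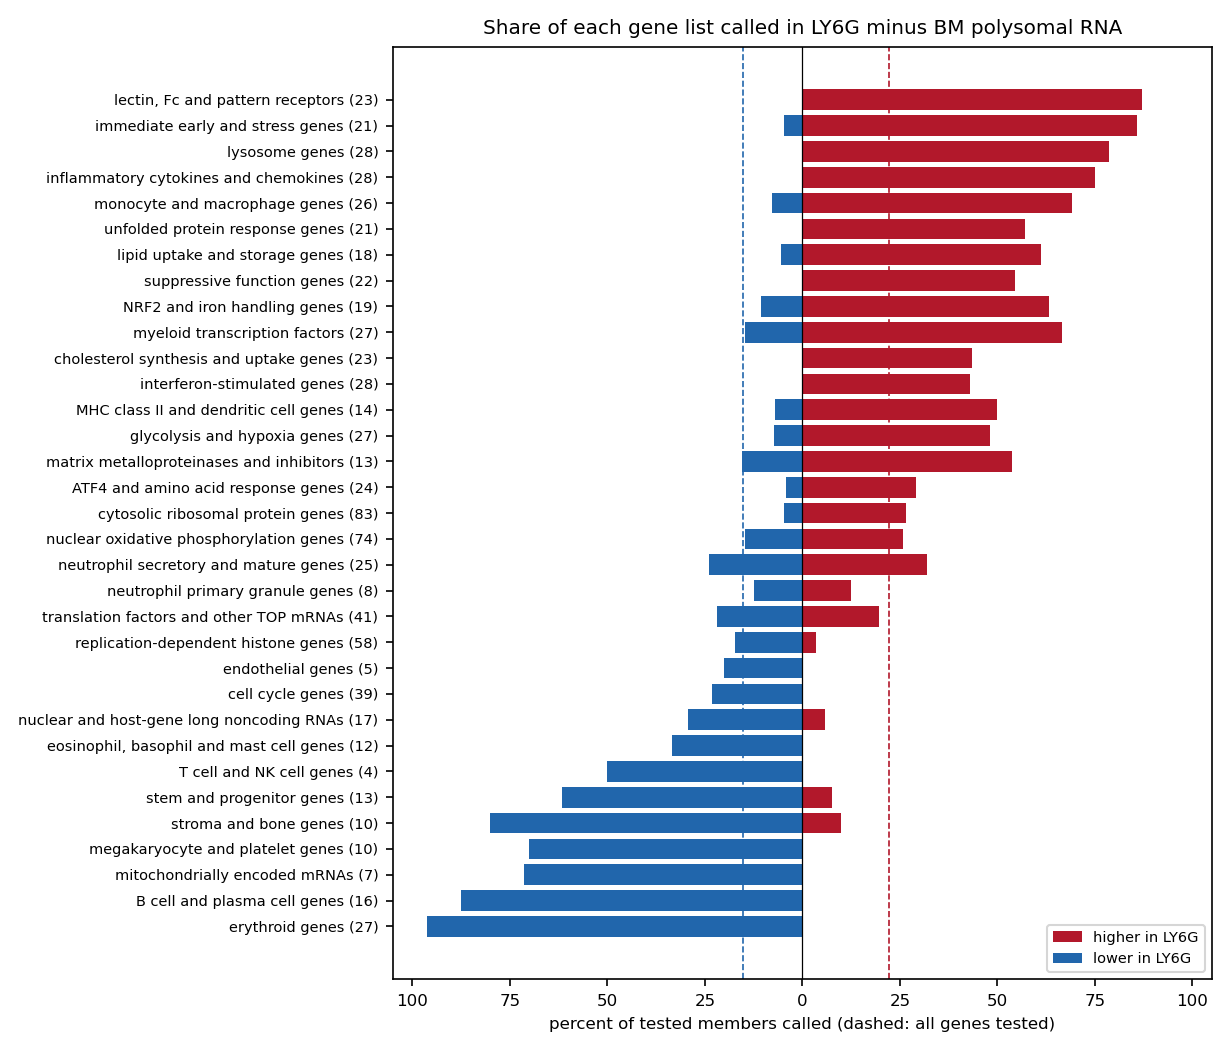
Share of the tested members of each of 33 gene lists that was called higher (red, to the right) or lower (blue, to the left) in LY6G, with the number tested in brackets. Dashed lines give the shares of all genes tested, 22.1% higher and 15.3% lower. Erythroid genes are at the far left with 26 of 27 lower, and lectin, Fc and pattern receptors at the far right with 20 of 23 higher.

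Stress response and metabolic groups had more members called higher than lower. Of 19 NRF2 and iron genes 12 were higher and 2 lower, with a median log2 difference of 2.11. Srxn1, which repairs oxidised peroxiredoxins, had 83.3, 68.1 and 65.7 CPM against 0.571, 1.16 and 2.81 CPM (48.0-fold, adjusted p = 3.11e-06). Slc7a11, the cystine importer, had 144, 131 and 179 CPM against 5.42, 2.31 and 0 CPM (55.9-fold, adjusted p = 5.11e-05). Prdx1, a peroxiredoxin, had 522, 475 and 871 CPM against 35.4, 21.4 and 11.2 CPM (27.3-fold, adjusted p = 3.04e-05). The 2 lower members, named after their values were seen, were the iron exporter Slc40a1 and the transferrin receptor Tfrc, with log2 differences of -2.01 and -1.28, and Tfrc lost its call in 5 of the 6 fits that left out a library.

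Of 21 genes of the unfolded protein response 12 were higher and 0 lower (median 1.13). The higher count was 10 without LY6G replicate 3, LY6G replicate 6, BM replicate 1 or BM replicate 3. Pdia4 and Sdf2l1, helpers of folding in the endoplasmic reticulum, rose 8.11-fold and 7.4-fold (adjusted p = 8.99e-05 and 2.85e-05). The ATF4 and amino acid response had 7 higher and 1 lower of 24 (median 0.92, or 0.56 with genes at their floor). Its higher share of 29.2% was near the 22.1% of all genes tested, and 15 differences were positive and 9 negative. Slc3a2, the partner chain of amino acid transporters, rose 7.25-fold, and Atf4 itself had 56.2, 56.5 and 35.6 CPM against 14.3, 11.6 and 19.3 CPM (3.26-fold, adjusted p = 0.00135). The lower member was the mitochondrial serine enzyme Shmt2, which did not pass without LY6G replicate 2, LY6G replicate 6 or BM replicate 1 (adjusted p = 0.0595, 0.0783 and 0.118). Glycolysis and hypoxia genes were higher for 13 of 27 and lower for 2 (median 1.49), and the lower count was 0 without LY6G replicate 2 and 1 without any other library. Slc2a1, the glucose transporter GLUT1, had 70.5, 76.8 and 116 CPM against 3.71, 0.578 and 2.81 CPM (34.2-fold, adjusted p = 1.35e-05). Egln3, an oxygen sensing hydroxylase, rose 15.7-fold, and the glycolytic enzyme gene Eno1 5.80-fold (adjusted p = 0.000218 and 0.00012).

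Cholesterol synthesis and uptake genes were higher for 10 of 23 and lower for 0 (median 1.42), and for 6 without BM replicate 1. Insig1, which holds back sterol synthesis when sterol is plentiful, had 27.1, 26.5 and 8.41 CPM against 0.285, 2.89 and 3.87 CPM (9.35-fold, adjusted p = 0.00372). All LY6G libraries lay above all BM libraries, which was a condition for naming the gene, and replicate 6 was the lowest of its group. Interferon-stimulated genes were higher for 12 of 28 and lower for 0 (median 2.54). The count was 7 without LY6G replicate 6, 22 in the fit of the 6 libraries alone and 25 without a low-count filter. Ifih1, a sensor of viral RNA, had 16.5, 18.4 and 40.2 CPM against 6 BM counts (34.8-fold, adjusted p = 0.000441), and Oas3, which senses the same kind of RNA, 65.7, 79.0 and 189 CPM against 10.8, 5.78 and 11.6 CPM (11.6-fold, adjusted p = 9.71e-05). Replicate 6 was the highest LY6G library for both.

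Erythroid genes formed the group with the lowest median, -10.46 (-10.29 with genes at their floor), and 26 of 27 tested members were lower in LY6G. The one that did not pass was Nfe2, a factor shared with megakaryocytes, at 14.6, 11.8 and 19.5 against 21.4, 26 and 22.5 CPM (adjusted p = 0.236). Slc4a1, the red cell anion exchanger called band 3 (ENSMUSG00000006574, chromosome 11, 102348824 to 102366203), had 159, 158 and 246 CPM in BM and 0 counts in LY6G, so it was at least 18200-fold lower. Klf1, the erythroid Krüppel-like factor, had 53.6, 42.2 and 43.2 CPM against 5 LY6G counts (-11.19 ± 0.60, adjusted p = 3.97e-10). Aqp1, a water channel, had 61.3, 60.7 and 58.0 CPM against 2 LY6G counts, a ratio of 8720 (interval 2400 to 72200). Other genes with 0 LY6G counts included Pklr, pyruvate kinase of red cells, Add2, an adductin of the membrane skeleton, and Rhd, a blood group antigen, at least 3290-fold, 2090-fold and 1760-fold lower.

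The globins behaved alike but with more scatter. Hbb-bs, adult beta globin, had 142, 89.6 and 109 CPM in BM and 0.0517, 0.00965 and 0.567 CPM in LY6G (log2 difference -9.09 ± 1.71, adjusted p = 0.000847). Hba-a2, an alpha globin, had 163, 42.8 and 63.2 CPM against 10 LY6G counts (-11.22 ± 1.19, adjusted p = 2.61e-06). LY6G replicate 6 held most of the globin counts of its group. The globin genes have near-identical copies, so the division of reads between Hbb-bs and Hbb-bt, and between Hba-a1 and Hba-a2, is uncertain.

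Upstream sequences of 3 erythroid genes are shown because the list fell nearly as a whole and some members hold the letters of a motif bound by GATA factors, which direct red cell genes. Alas2, the first enzyme of haem synthesis in red cells, and Epor, the erythropoietin receptor, were picked with Hbb-bs after their letters were seen. Alas2 had 31.7, 23.1 and 44.6 CPM in BM and 6 LY6G counts, all in replicate 6 (log2 difference -10.46 ± 0.91, adjusted p = 8.2e-08). Epor had 16.3, 20.2 and 26.4 CPM against 3 LY6G counts, a ratio of 2000 (interval 673 to 9800). The letters AGATAA occurred on either strand within 250 bases upstream in 7 of 22 erythroid genes with a RefSeq entry (31.8%), against 11.4% of all 27025 genes. The letters CCACACCC of the CACCC box, which KLF1 reads, occurred in 1 of 22 (4.55%), against 3.68%. Capitals mark AGATAA or its reverse complement and, in Hbb-bs, also CCACACCC.
Hbb-bs, chr7:103827929-103828178, minus strand: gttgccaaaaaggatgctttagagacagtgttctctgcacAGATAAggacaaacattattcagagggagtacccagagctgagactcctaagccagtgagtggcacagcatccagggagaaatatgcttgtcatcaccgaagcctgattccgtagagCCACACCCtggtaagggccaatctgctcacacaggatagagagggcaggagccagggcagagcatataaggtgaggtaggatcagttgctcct
Epor, chr9:21963577-21963826, minus strand: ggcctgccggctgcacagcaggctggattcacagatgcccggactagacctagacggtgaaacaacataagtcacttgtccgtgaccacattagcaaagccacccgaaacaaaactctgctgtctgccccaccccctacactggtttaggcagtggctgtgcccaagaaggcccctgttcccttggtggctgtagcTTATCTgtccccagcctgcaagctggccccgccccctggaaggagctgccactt
Alas2, chrX:150547167-150547416, plus strand: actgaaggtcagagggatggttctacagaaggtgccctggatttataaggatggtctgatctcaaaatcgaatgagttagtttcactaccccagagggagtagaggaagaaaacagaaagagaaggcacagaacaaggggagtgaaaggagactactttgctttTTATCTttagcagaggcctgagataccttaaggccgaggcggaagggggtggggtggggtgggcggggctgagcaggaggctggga
The GATA match begins 210 bases before the start in Hbb-bs, 54 in Epor and 86 in Alas2, the last 2 read on the opposite strand. The CACCC match of Hbb-bs begins 93 bases before its start.

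Stromal mRNAs were found in BM polysomes and nearly missing from LY6G. Of 10 stroma and bone genes 8 were lower and 1 higher, with a median log2 difference of -7.64. Col1a1, type I collagen (ENSMUSG00000001506, chromosome 11, 94936224 to 94953042), had 1540, 4840 and 2090 CPM in BM and 0.909, 0.511 and 1.32 CPM in LY6G (-11.59 ± 1.15, adjusted p = 1.09e-06). Cxcl12, the chemokine by which stroma holds stem cells and neutrophils in marrow, had 20.8, 30.6 and 24.2 CPM against 1 LY6G count, a ratio of 7010 (interval 1240 to 278000). Col2a1, the cartilage collagen, had 24.2, 20.8 and 30.6 CPM against 2 LY6G counts, a ratio of 3740 (1020 to 31100). The higher member was Spp1, osteopontin, at 90.9, 106 and 111 against 11.4, 4.05 and 2.81 CPM (16.2-fold, adjusted p = 0.000933), named after its values were seen.

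B lineage genes were lower for 14 of 16 members, with a median of -6.13. Ighm, the heavy chain of IgM, had 79.3, 66.5 and 59.4 CPM in BM and 1.86, 1.67 and 2.53 CPM in LY6G (log2 difference -5.08 ± 0.65, adjusted p = 9.25e-06). Ebf1, a factor of B cell commitment, and Rag1, which rearranges antigen receptors, had 20.8, 18.5 and 29.9 against 0.031, 0.0193 and 0.0889 CPM and 12.8, 11.0 and 10.2 against 0.031, 0 and 0.0445 CPM. Of 4 T and NK cell genes tested, 2 were lower, namely Cd3d and Nkg7 (log2 differences -4.56 and -4.13). Of 10 megakaryocyte and platelet genes 7 were lower (median -2.85). Gp5, a platelet glycoprotein, had 32.8, 36.4 and 39.0 against 0.0517, 0.0579 and 0.367 CPM, and Itga2b, the platelet integrin, 118, 80.4 and 115 against 1.26, 0.559 and 4.32 CPM (adjusted p = 2.01e-07 and 3.44e-05). Pf4, platelet factor 4, differed from these without passing, at 49.9, 44.7 and 199 against 23.7, 17.3 and 26.7 CPM.

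Of 12 eosinophil, basophil and mast cell genes, 4 were lower and 0 higher. Prg2, the major basic protein of eosinophil granules, had 272, 298 and 195 CPM in BM and 1.27, 1.20 and 11.1 CPM in LY6G (log2 difference -5.82 ± 1.08, adjusted p = 0.000603). Epx, eosinophil peroxidase, had 20.3, 11.0 and 24.9 against 0.651, 0.453 and 5.55 CPM (adjusted p = 0.0111), and Hdc, which makes histamine, 61.3, 21.4 and 20.7 against 4.42, 3.59 and 9.55 CPM (adjusted p = 0.00213). LY6G replicate 6 was the highest of its group for all 3. Stem and progenitor genes were lower for 8 of 13 and higher for 1, Runx1, and lower for 5 without LY6G replicate 2. Myb, a factor of dividing progenitors, had 50.2, 63.0 and 52.4 against 1.46, 2.25 and 1.77 CPM (-4.91 ± 0.76, adjusted p = 7.81e-05), and Lmo2, a partner of GATA and TAL1 factors, 93.3, 56.7 and 68.5 against 11.7, 14.6 and 11.2 CPM (-2.54 ± 0.36, adjusted p = 1.95e-05). Of 5 endothelial genes, 1 was lower, the adhesion gene Esam, and the count was 2 with DESeq2 or a replicate block, 3 with limma and 0 with a filter of 50 counts.

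Cell cycle genes had 9 lower and 0 higher members of 39, and 34 of the 39 differences were negative (median -1.21). The lower members were 23.1% of the list, against 15.3% of all genes tested. Mcm7, a subunit of the replicative helicase, had 83.3, 69.4 and 91.7 CPM in BM and 11.7, 21.9 and 5.30 CPM in LY6G (log2 difference -2.65 ± 0.66, adjusted p = 0.00441). Rrm2, of the enzyme that makes deoxynucleotides, had 127, 74.6 and 116 against 17.2, 26.3 and 3.19 CPM (-2.77 ± 0.84, adjusted p = 0.0165). LY6G replicate 6 was the lowest library for both. The count of 9 fell to 3 without LY6G replicate 2 or replicate 6 and to 4 without BM replicate 1, and was 15 in the fit of the 6 libraries alone. Replication-dependent histone genes, multicopy genes whose reads may be split between copies, were lower for 10 and higher for 2 of 58 (median -0.84). Their lower share of 17.2% was near the 15.3% of all genes tested. The lower count was 1 without LY6G replicate 6, 2 without BM replicate 1, 4 without BM replicate 3, 5 without LY6G replicate 3 and 6 without LY6G replicate 2. Hist1h1d, a linker histone, had 219, 235 and 263 CPM in BM and 51.6, 69.3 and 18.3 CPM in LY6G (adjusted p = 0.0177, and 0.0673 without LY6G replicate 6).

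The translation machinery was not moved as a whole. Of 83 cytosolic ribosomal protein genes, 22 were higher and 4 lower, shares near or below the background, with a median log2 difference of 0.48 (0.38 with genes at their floor). The higher count was 14 without BM replicate 3 and 36 with a replicate block. Rps28 and Rps29, small proteins of the small subunit, had 42.0, 31.2 and 17.4 against 3.71, 2.31 and 2.46 CPM and 36.7, 26.9 and 16.2 against 2.0, 7.52 and 3.51 CPM (10.4-fold and 6.58-fold, adjusted p = 0.000142 and 0.000235). Ribosomal protein genes have many processed copies, so their counts are uncertain where reads could fall to a copy. The lower members included Rps10, Rpl23a and Rps24, and Rpl23a did not pass without BM replicate 1, LY6G replicate 3 or LY6G replicate 6 (adjusted p = 0.186, 0.0715 and 0.0893). Translation factors and other mRNAs with a 5′ terminal oligopyrimidine tract had 8 higher and 9 lower of 41, and 5 and 3 higher without LY6G replicate 2 and BM replicate 3. Eif3a, a subunit of initiation factor eIF3, had 258, 257 and 213 CPM in BM and 47.1, 52.6 and 40.8 CPM in LY6G (-2.37 ± 0.30, adjusted p = 5.65e-06). Pabpc1, the cytoplasmic poly(A) binding protein, had 196, 176 and 172 against 76.4, 73.0 and 44.9 CPM (-1.49 ± 0.29, adjusted p = 0.000528). Eif4g2, an initiation factor of the eIF4G family, went up at 207, 216 and 186 against 40.8, 50.3 and 49.5 CPM (4.34-fold, adjusted p = 0.000113).

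Mitochondrially encoded mRNAs, which mitochondrial and not cytosolic ribosomes translate, were lower for 5 of 7 tested (median -3.59). mt-Nd6, a subunit of complex I, had 179, 312 and 216 CPM in BM and 0.393, 0.752 and 0.734 CPM in LY6G (-8.55 ± 1.05, adjusted p = 1.17e-05). Mitochondrial ribosomal RNA moved the same way, as given above. Nuclear genes of oxidative phosphorylation had 19 higher and 11 lower of 74 (median 0.37, or 0.26 with genes at their floor). Their shares, 25.7% and 14.9%, were near the 22.1% and 15.3% of all genes tested, and 12 were higher without BM replicate 3. Cox7c and Cox7a2, small subunits of complex IV, rose 16.5-fold and 14.3-fold, and Sdha, the catalytic subunit of complex II, had 26.8, 30.7 and 30.1 against 78.7, 90.8 and 85.0 CPM (-1.54 ± 0.28, adjusted p = 0.000235). Among long noncoding RNAs 5 were lower and 1, Snhg6, higher of 17, and Snhg6 had 0 BM counts. Its call was lost in 5 of the 6 fits that left out a library, all but that without LY6G replicate 6 (adjusted p between 0.0624 and 0.114). Malat1, a nuclear transcript, had 917, 518 and 713 CPM in LY6G and 2480, 1820 and 1880 CPM in BM (-1.53 ± 0.42, adjusted p = 0.00707), and it was counted in the polysomal libraries of both groups. The lower count was 3 without BM replicate 1, BM replicate 3 or LY6G replicate 6.

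The same cells had libraries of total RNA, which allowed a test of whether the LY6G minus BM difference was unequal between polysomal and total RNA. Of 14181 genes, 14 (0.0987%) had a higher and 45 (0.317%) a lower difference in polysomal RNA, and of those 45, 28 had 0 counts in every BM total library, which held only 54944 to 76341 nuclear protein-coding counts. The split depended on the method, with 155 higher and 45 lower under DESeq2, 22 and 17 with median-ratio factors, and 59 and 46 without a low-count filter. Calls fell on 4 genes of the lists, chosen after their values were seen. Spi1, which encodes the myeloid factor PU.1, had 53.3, 48.3 and 67.6 against 12.6, 14.5 and 11.9 CPM in polysomal RNA, a log2 difference of 2.13 ± 0.31, and -0.07 ± 0.31 in total RNA, so the polysomal difference exceeded the total by 2.20 ± 0.44 (adjusted p = 0.0304). mt-Nd5, of complex I, was at -6.05 in polysomal and -8.89 in total RNA (2.85 ± 0.59, adjusted p = 0.0345). Ncf1, the cytosolic oxidase subunit, was at 0.20 and 2.27 (-2.07 ± 0.46, adjusted p = 0.047), and the ribosomal protein gene Rps24 at -1.35 and 1.39 (-2.74 ± 0.58, adjusted p = 0.0372). BM total RNA held 14, 28 and 29 counts of Spi1, 18, 10 and 10 of Ncf1 and 10, 7 and 2 of Rps24.

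Set against LY6C polysomal RNA, which was compared with the same BM libraries, the LY6G libraries gave 0 called genes (0.0%) in edgeR, with 833 at an unadjusted p under 0.05. DESeq2 and limma also called 0, and the fit without a low-count filter called 88. This does not show that the populations are alike. Side by side, the LY6G minus BM and LY6C minus BM log2 differences were 4.14 ± 0.43 and 3.88 ± 0.43 for Csf1r, 9.81 ± 0.78 and 9.72 ± 0.78 for Clec4n, and 2.73 ± 0.53 and 4.34 ± 0.56 for Ly6c2. Mpo was at -4.90 ± 1.33 and -2.07 ± 1.17, and LY6C had 13.8, 120 and 2.71 CPM of it, highest in its replicate 3. The LY6G minus LY6C difference was -1.61 ± 0.49 for Ly6c2 and -2.83 ± 1.21 for Mpo (both adjusted p = 0.841), and 0.71 ± 0.73 for Ly6g (adjusted p = 0.92).

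A property that the comparison did not use, the GC content of the transcript, also went with the calls. Over 11795 protein-coding genes tested, 99.9% with a sequence, the higher genes had a median GC content of 48.2% and the lower genes of 52.6%. With the genes split into 5 equal bins, the bin of lowest GC content had 31.5% higher and 9.16% lower genes, and the bin of highest GC content 15.1% and 26.8%. Across 5 bins of transcript length the lower share stayed between 14.2% and 17.3%. A fit with GC offsets for each library called 3090 higher and 2162 lower genes, and kept 4346 of the 5310 calls it could test, all in the same direction. Whether GC content stands for the libraries or the cells was not tested.

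**Figure D5:**
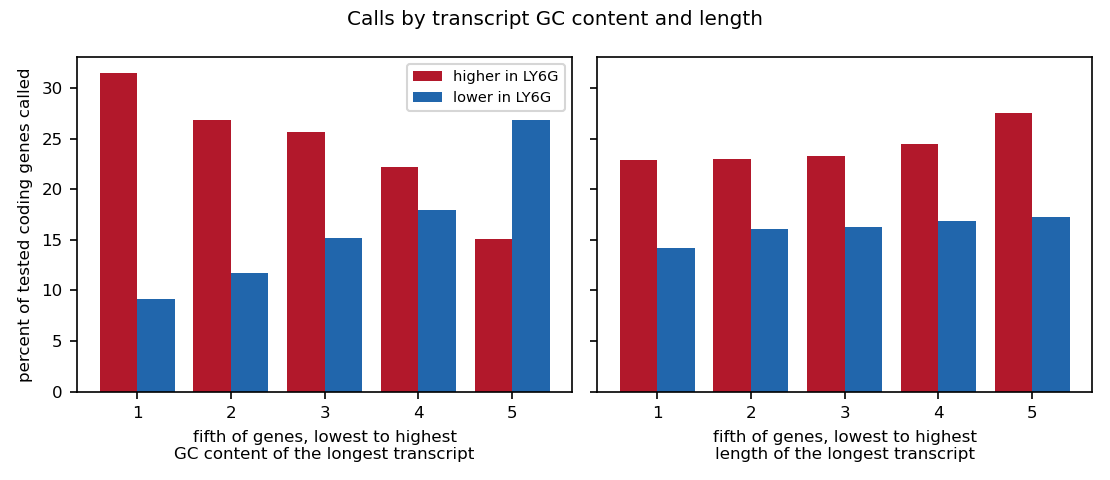
Percent of tested protein-coding genes called higher (red) or lower (blue) in LY6G, in 5 bins of GC content (left) and of length (right) of the longest GENCODE transcript, each bin holding 2357 or 2358 genes. The higher share goes from 31.5% to 15.1% from the lowest to the highest GC bin, and the lower share from 9.16% to 26.8%.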

How the data were processed

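Raw counts of 54838 genes in 18 libraries were used as deposited. Per the labels' protocols, the authors made stranded libraries after ribosomal RNA depletion, and the submitters' processing notes list FastQC, STAR 2.5.2a, DESeq and DESeq2 with GRCm38. The counting program, its annotation and its strand setting are not given in the sources used here. GENCODE M21 named 54809 identifiers and left 29 without a name.

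All 18 libraries entered 1 edgeR 4.0.16 model (R 4.3.3) with 6 group means, after filterByExpr with a minimum count of 10 (14181 genes) and TMM scaling. Robust quasi-likelihood tests were adjusted by Benjamini-Hochberg, with calls at 0.05, and errors are SE of the log2 difference. Genes at 0 counts in a group have a floor of 3 counts over that group, and those with 1 to 3 counts a ratio with an exact 95% interval. Intervals and floors cover counting error only, and the series text calls the 3 libraries of a group independent biological replicates.

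Groups follow the sample titles. Named genes were the 12 largest rises and falls without overlap at 10 CPM or more, 6 each way with 0 counts in a group, up to 4 members of each of 33 lists, and 15 followed genes. Members of small counts, members that did not pass and other genes named beside these were chosen after their values were seen. The lists and genes were chosen with earlier results of these data known. On simulated data for LY6G minus BM in polysomal RNA (12865 genes), 7.46% of 2-fold, 80.6% of 4-fold and 98.5% of 8-fold changes were recovered. The changed genes were drawn from those with a mean of 10 CPM or more in the 6 libraries. Both groups started at the same level, so recovery for genes with few BM counts was not tested. Numbers 2 and 3 occur in both groups, but nothing in the labels ties them, and in the check of pairing their deviations correlated at -0.07 and -0.07. Alternatives used DESeq2 1.42.0, limma 3.58.1, other scalings and filters, the 6 libraries alone, a replicate block, thinning and leaving out each library. Figures were drawn with matplotlib 3.10.9. Promoter sequences came from RefSeq (GRCm38.p6). A few genes are not reported here.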

Additional observations from a re-analysis of the deposited data

Results flagged for a closer look

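Among listed genes, 4 had a LY6G minus BM difference that was unequal between polysomal and total RNA by the test of that difference (edgeR, adjusted p under 0.05). The polysomal minus total log2 value was 2.2 for Spi1, 2.85 for mt-Nd5, -2.07 for Ncf1 and -2.74 for Rps24. Under alternatives the value for Spi1 ranged from 2.01 to 2.57 and was called in 8 of 15, that for mt-Nd5 from 2.03 to 3.22 in 7 of 12, that for Ncf1 from -2.15 to -1.71 in 4 of 15, and that for Rps24 from -3.08 to -2.37 in 8 of 15. Reads of Ncf1 and Rps24 could fall to copies of these genes.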

How the results depend on the processing

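The counts of 3137 higher and 2176 lower genes stayed within 1.5 times under DESeq2, limma, median-ratio factors, other filters, the 6 libraries alone, GC offsets, nuclear protein-coding genes alone and omission of 85 mitochondrial and dominant genes. Thinning every library to at most 274914 nuclear protein-coding counts gave 1456 higher and 1650 lower of 7245 tested. Leaving out each LY6G or BM library in turn gave 2532 to 2786 higher and 1739 to 2010 lower genes. No called gene changed direction in these fits. The higher share of calls was 59% and went to 46.9% with thinned libraries; the median log2 difference was 0.68 with median-ratio factors, 0.12 with limma and -0.04 with thinning. The replicate block, on numbers that do not pair the animals by any label, gave 3229 higher and 2303 lower genes and raised the higher ribosomal protein genes from 22 to 36. The 59 genes unequal between polysomal and total RNA became 200 with DESeq2, 105 without a filter, 39 with median-ratio factors, 6 with thinning and 87 with the replicate block, and 12 to 55 when a library was left out. GC offsets lowered the histone count from 10 to 6. With a filter of 50 counts in 3 libraries, 17 of 18 erythroid, 6 of 8 B lineage and 5 of 6 stroma genes left in the test were lower. With thinning, ribosomal protein genes went from 22 higher of 83 tested to 14 of 79, and nuclear oxidative phosphorylation genes from 19 of 74 to 9 of 59. The cell cycle list had 15 lower of 36 and the translation factor list 14 lower of 41. The other list counts that moved by over 1.5 times with thinning held fewer tested genes. Over the 146 named genes, each counted once per alternative that tested it, 2401 pairs of gene and alternative kept their side of the threshold, 28 lost and 12 gained the call. The causes were not tested.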

Other observations

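A further 7 lists were drawn up after values were seen, and their counts are descriptions without a test. Receptor chains of GM-CSF and targets of STAT5 were higher in LY6G for 8 of 13 and lower for 0. Coagulation and fibrinolysis genes, among them inhibitors and activators of clotting that phagocytes secrete, were higher for 8 and lower for 1 of 12. Enzymes of haem synthesis were lower for 8 and higher for 1 of 9. Acidic nuclear chaperones were lower for 9 of 10, and hnRNP genes, which package nuclear RNA, for 13 of 19, or 9 without LY6G replicate 6. Collagen genes were lower for 19 of 25 and higher for 0, and semaphorins with their plexin and neuropilin receptors had 6 higher and 5 lower of 20.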
